A study of Mus musculus with 6 samples.

Results

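The genes next to the targeted locus were described in intestinal crypts of WT and Mtg16-/- mice. They are 60 listed genes out of the 24736 gene symbols in the deposited expression table, all on mouse chromosome 8 and within 5 Mb of Cbfa2t3, the gene that encodes MTG16. They were chosen by position and not by their values in these libraries, although earlier results of these data were known when the list was drawn up. Crypts were isolated from the full length of the gut of 12-week-old males with 2 mM EDTA for 30 min, and total RNA of 3 WT and 3 Mtg16-/- mice was depleted of ribosomal RNA and sequenced. None of the mice received a treatment. The sample labels call the Mtg16-/- mice a CRISPR-induced knockout and the study's methods call them a gift, and the strain of either group is not given in the sources used here. Expression was given as TPM, a transcript abundance scaled by gene length and to an equal total in each library, and the depth behind a value is therefore unknown. In bulk crypts, fewer cells of a type and less RNA per cell cannot be told apart.

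MTG16 is a transcriptional co-repressor of the myeloid translocation gene family. It does not bind DNA by itself but is brought to promoters and enhancers by transcription factors, among them the E proteins, which recognize E-box sequences of the form CANNTG together with basic helix-loop-helix partners such as ATOH1. Neighbouring genes matter in any knockout comparison for a separate reason: DNA around a targeted locus is inherited together with it, and a removed stretch of DNA can hold regulatory elements of other genes. In these libraries, the loss of MTG16 and any difference linked to the locus go together and cannot be told apart. The listed genes themselves have varied functions, from purine salvage and autophagy to DNA repair and ciliary assembly.

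By RefSeq positions on GRCm38.p6, Cbfa2t3 lies at chr8:122625136-122699332. Of the 60 genes, 55 averaged 1 TPM or more across libraries and were tested, 33 of them on the centromere side of Cbfa2t3 and 22 on the telomere side. The nearest was Trappc2l, 0.00954 Mb away, and the farthest was Sdr42e1, 4.95 Mb away. The promoters of 3 genes are shown so that their letters stand beside the values that follow. Among genes without overlap between the groups and with a promoter entry that lies outside the gene, Klhdc4 and Fanca had the most negative fold changes and Map1lc3b the most positive. Each sequence is from RefSeq (GRCm38.p6), ends next to the annotated gene, and is written 5′ to 3′ on the strand of the gene. Capitals mark matches to the E-box CAGCTG, to the E-box CACCTG, which reads as CAGGTG on the other strand, or to the E-box CACGTG. The regions are chr8:121829584-121829819 on the minus strand for Klhdc4, chr8:123318652-123318826 on the minus strand for Fanca, and chr8:121590188-121590437 on the plus strand for Map1lc3b.
Klhdc4: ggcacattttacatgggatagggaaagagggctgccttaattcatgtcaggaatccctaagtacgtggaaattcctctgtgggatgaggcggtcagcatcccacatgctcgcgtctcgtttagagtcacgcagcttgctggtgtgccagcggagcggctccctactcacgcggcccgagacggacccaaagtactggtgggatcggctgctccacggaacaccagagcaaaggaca
Fanca: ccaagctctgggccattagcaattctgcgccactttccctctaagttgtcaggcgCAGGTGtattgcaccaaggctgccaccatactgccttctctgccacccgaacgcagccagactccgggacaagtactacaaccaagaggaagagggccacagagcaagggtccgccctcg
Map1lc3b: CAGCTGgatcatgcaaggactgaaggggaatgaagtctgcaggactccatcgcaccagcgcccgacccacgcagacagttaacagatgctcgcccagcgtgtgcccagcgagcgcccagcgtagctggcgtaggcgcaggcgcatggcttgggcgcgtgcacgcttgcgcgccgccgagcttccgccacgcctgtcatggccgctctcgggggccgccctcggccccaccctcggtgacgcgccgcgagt
No match was found in the Klhdc4 sequence, which is 236 bases long and not the full 250. The Fanca sequence held 1 match, CAGGTG, which began 195 bases before the start from which promoters were counted. For Fanca that start lies inside the annotated gene. The sequence shown was therefore cut to 175 bases, and the distance is not counted from its last letter. The Map1lc3b sequence also held 1, CAGCTG, which began 250 bases before its start. Both strands were searched over the 250 bases before the start of 9757 tested genes, and 31.3% of these promoters held at least 1 of the motifs. Among the 41 tested listed genes with a promoter entry, 17 did. CACCTG was found in 11 of the 41 and in 15.6% of the 9757, CAGCTG in 5 and in 11.2%, and CACGTG in 2 and in 8.61%. Matches of these motifs cannot share letters, and a match is a description of the sequence and not a binding site. The median number of CG dinucleotides was 22 in the promoters of the listed genes and 16 over all.

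Cbfa2t3 itself did not separate the genotypes. The WT mice had 3.67, 6.69 and 4.52 TPM and the mice labelled Mtg16-/- had 4.62, 6.43 and 3.23 TPM, so the groups overlapped. Its log2 fold change was -0.06 (SE 0.27, limma adjusted p = 0.937). All fold changes are for Mtg16-/- over WT on the log2(TPM + 1) scale, on which the change of weakly expressed genes is understated. A gene-level value sums all exons and does not show whether an exon is missing, so the genotype of each library rests on its label.

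Klhdc4, which encodes a kelch domain protein, was the 1 listed gene that passed the test. It was lower in the Mtg16-/- libraries, with a TPM of 33.29, 39.31 and 43.70 in WT against 12.64, 16.16 and 15.93 in Mtg16-/-. All 3 Mtg16-/- values lay far under the lowest WT value. The means were 38.8 ± 5.23 (SD, n = 3) and 14.9 ± 1.97 (SD, n = 3), a 2.6-fold lower level in Mtg16-/-. The log2 fold change was -1.32 (SE 0.15, limma adjusted p = 0.0894), the 4th smallest p over all tested genes. Klhdc4 lies at chr8:121796308-121829583, 0.796 Mb from Cbfa2t3 on the centromere side, and overlaps no other protein-coding gene of the table. Its adjusted p was close to the threshold of 0.1. The call was lost without WT replicate 2 (adjusted p = 0.121), WT replicate 3 (0.143) and Mtg16-/- replicate 1 (0.196), 2 (0.480) or 3 (0.229), each from limma, while the log2 fold change stayed between -1.42 and -1.21 with any 1 library left out.

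Over all 12268 tested genes, 4 were called, or 0.0326%. With 3 libraries against 3, an exact permutation test of a single gene cannot go below p = 0.1, so the number of genes whose lowest value in one group lay above the highest in the other is also given. By that measure 17 of the 55 tested listed genes did not overlap, 30.9%, against 21.0% of all tested genes. Of these, 6 were higher in Mtg16-/-, where 9.94% of all tested genes were, and 11 were lower, where 11.1% of all were. At an unadjusted p under 0.05, 11 of the 55 passed, 20%, against 14.6% of all. The median log2 fold change of the tested listed genes was -0.11, against -0.03 over all genes, and the median size of the change was 0.19 in both. The gap to all genes in the share without overlap was narrower under other scalings. After median-ratio rescaling 14 of the 55 did not overlap, 25.5% against 21.9% of all, and 11 of the 14 were lower. After quantile normalization 14 did not, 25.5% against 22.0% of all, and 8 of the 14 were lower.

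**Figure D1:**
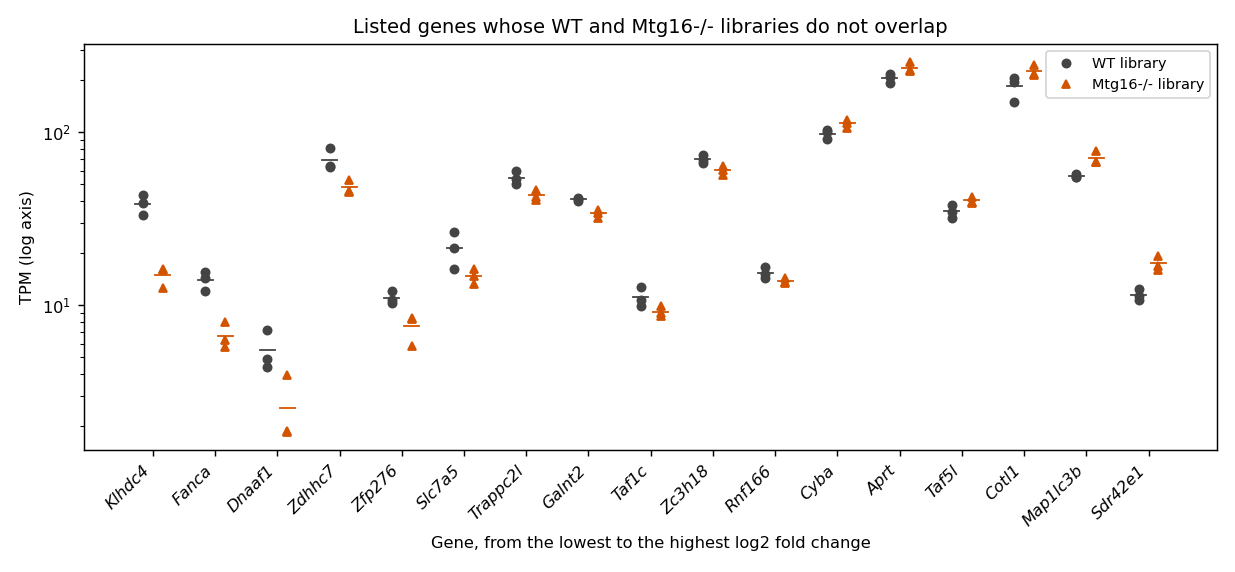
TPM per library, on a log axis, of the 17 listed genes whose 3 WT libraries (circles) and 3 Mtg16-/- libraries (triangles) do not overlap, with a short line at each group mean, ordered by log2 fold change. Klhdc4 (-1.32), Fanca (-0.97) and Dnaaf1 (-0.89) stand at the left with the widest distance between group means, and Sdr42e1 (0.56) stands at the right.

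The groups are described by role, from genes of protein turnover and autophagy to DNA repair, metabolism, secretion, the cytoskeleton, transport and transcription. Apart from Klhdc4, none of the values that follow passed the adjusted threshold. Each count of genes without overlap is to be read beside 21.0% of all tested genes, 9.94% higher and 11.1% lower in Mtg16-/-. The role groups are small, and their counts are descriptions that were not tested.

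Among 10 tested genes of protein turnover, autophagy and membrane remodelling, 3 did not overlap between the groups, 1 higher and 2 lower. Map1lc3b encodes LC3B, the ubiquitin-like protein that is coupled to lipid on autophagosome membranes. Its TPM was 55.26, 57.35 and 55.02 in WT and 78.38, 67.81 and 67.33 in Mtg16-/-. The WT libraries lay within a narrow range, and every Mtg16-/- library was above them. The log2 fold change was 0.34 (SE 0.11, limma adjusted p = 0.284), and the 3′ end of the gene overlaps Zcchc14 on the opposite strand, whose own log2 fold change was 0.00. Rnf166, a RING finger ubiquitin ligase, had 16.70, 14.36 and 15.22 TPM in WT and 13.61, 13.43 and 14.31 in Mtg16-/-, where the highest Mtg16-/- value was almost that of WT replicate 2. Chmp1a, a subunit of the ESCRT-III membrane-cutting complex, was the most abundant gene of the group, with 100.55, 82.00 and 83.49 TPM in WT and 92.60, 85.52 and 80.27 in Mtg16-/-. Klhl36, a kelch-like adaptor of cullin ubiquitin ligases, was the least abundant, at 3.50, 4.97 and 4.23 TPM against 3.63, 5.20 and 4. Spg7, a subunit of the mitochondrial m-AAA protease and among the nearest genes on the telomere side, had a log2 fold change of 0.00 (SE 0.13). The deubiquitinase Usp10 and the F-box protein gene Fbxo31 had overlapping groups and log2 fold changes of -0.22 (SE 0.13) and 0.25 (SE 0.18).

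Fanca encodes a core subunit of the Fanconi anaemia complex, which acts in the repair of DNA crosslinks. Its TPM was 12.06, 14.38 and 15.67 in WT and 6.30, 8.01 and 5.75 in Mtg16-/-. No Mtg16-/- library reached the lowest WT library, and the mean was 2.10-fold lower. The log2 fold change was -0.97 (SE 0.17, limma adjusted p = 0.141), 41st in the order of p over all tested genes and second to Klhdc4 among the listed genes. Fanca lies at chr8:123266294-123318651, 0.567 Mb from Cbfa2t3 on the telomere side. Its end overlaps Zfp276, a zinc finger gene on the opposite strand that had 12.15, 10.80 and 10.29 TPM in WT and 8.38, 8.44 and 5.82 in Mtg16-/-. The Zfp276 groups did not overlap either, with a log2 fold change of -0.51 (SE 0.17, limma adjusted p = 0.285). Whether the counting used strand is not given in the sources used here, so reads from the stretch that both genes share cannot be assigned with certainty. Vps9d1, which overlaps the other end of Zfp276, had overlapping groups and a log2 fold change of 0.08 (SE 0.17). Cdk10, the other member of this role group and a cyclin-dependent kinase gene, had 20.76, 24.03 and 24.60 TPM against 24.39, 26.14 and 21.03, a log2 fold change of 0.04 (SE 0.14).

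Of 12 metabolic and oxygen-sensing enzyme genes, 2 did not overlap and both were higher in Mtg16-/-. Sdr42e1, a short-chain dehydrogenase/reductase gene, had the largest positive value of the listed genes. Its TPM was 12.36, 10.67 and 11.37 in WT and 16.05, 19.33 and 16.98 in Mtg16-/-. The groups were clearly apart, and the log2 fold change was 0.56 (SE 0.14, limma adjusted p = 0.233). Sdr42e1 was also the gene farthest from Cbfa2t3. Aprt, which salvages adenine for nucleotide synthesis, lay 0.0482 Mb away and was the most abundant listed gene, with 218.17, 208.09 and 192.21 TPM in WT and 230.40, 225.73 and 253.71 in Mtg16-/-. The Aprt groups were close to each other, and the log2 fold change was 0.20 (SE 0.12, limma adjusted p = 0.456).

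Galns, a lysosomal sulfatase gene 0.0134 Mb from Cbfa2t3, had 17.52, 14.23 and 15.53 TPM in WT and 16.93, 14.07 and 10.71 in Mtg16-/-. Acsf3, which activates malonate in mitochondria and is the nearest gene on the telomere side, had 40.17, 34.21 and 41.52 TPM against 36.02, 35.75 and 31.30. Both had overlapping groups. Ctu2, which acts in the thiolation of transfer RNA, was the least abundant gene of this group, at 9.40, 14.13 and 12.73 TPM in WT and 9.92, 10.37 and 9.46 in Mtg16-/-, and it overlaps Piezo1 on the opposite strand.

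The dipeptidase gene Dpep1 and the oxidative stress gene Osgin1 had overlapping groups, with the highest value in WT replicate 1. Among the listed genes lower without overlap, Dnaaf1, Zdhhc7, Trappc2l, Zfp276 and Rnf166 also had their highest value in that library. Klhdc4, Fanca, Slc7a5, Zc3h18, Taf1c and Galnt2 had theirs in another WT library. Dpep1 had 236.23, 123.71 and 113.78 TPM in WT and 159.14, 94.36 and 66.87 in Mtg16-/-. Osgin1 had 49.32, 23.15 and 23.06 TPM in WT and 25.54, 12.28 and 9.51 in Mtg16-/-. In both genes Mtg16-/- replicate 1 was above 2 of the WT libraries. Their log2 fold changes were -0.57 (SE 0.36, limma adjusted p = 0.480) and -0.99 (SE 0.40, limma adjusted p = 0.315), and these were the largest standard errors of the listed genes. Hsd17b2, which inactivates sex steroids, had 39.92, 26.74 and 18.79 TPM in WT and 43.15, 25.90 and 25.23 in Mtg16-/-. Egln1, the prolyl hydroxylase that marks hypoxia-inducible factors for degradation, had between 31.85 and 33.73 TPM in WT and between 28.51 and 32.17 in Mtg16-/-, where the groups overlapped at one end.

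Of 10 genes of the secretory pathway, lipid handling and glycosylation, 9 had negative log2 fold changes, as had 36 of the 55 tested listed genes and 6581 of all 12268 tested genes, and 3 of the 10 did not overlap, all lower in Mtg16-/-. Zdhhc7, a palmitoyltransferase of the Golgi, had 81.43, 63.62 and 63.25 TPM in WT and 53.22, 45.08 and 46.06 in Mtg16-/-. All Mtg16-/- libraries were lower, and the log2 fold change was -0.51 (SE 0.14, limma adjusted p = 0.263). Trappc2l, a subunit of the TRAPP vesicle-tethering complex and the closest listed gene to Cbfa2t3, had 59.64, 50.61 and 53.84 TPM in WT and 42.57, 40.55 and 46.63 in Mtg16-/-. Its log2 fold change was -0.33 (SE 0.12, limma adjusted p = 0.302). Galnt2, which starts mucin-type O-glycosylation, had 40.19, 41.84 and 40.94 TPM in WT and 35.81, 34.37 and 31.93 in Mtg16-/-. The WT values were close to each other, and the log2 fold change was -0.26 (SE 0.11, limma adjusted p = 0.332). Mbtps1, the site-1 protease that cleaves SREBP and ATF6, was the most abundant gene of the group, with 73.12, 67.06 and 75.96 TPM against 67.16, 67.47 and 56.53. Arv1, a sterol transport gene, was the least abundant, with 5.66, 10.28 and 7.79 TPM against 6.17, 6.45 and 5.32.

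Of the 3 cytoskeletal and ciliary genes, 2 did not overlap. Dnaaf1, a cytoplasmic assembly factor of ciliary dynein arms, had the lowest mean level of the tested listed genes, 4.03 TPM. Its TPM was 7.21, 4.42 and 4.87 in WT and 3.95, 1.88 and 1.86 in Mtg16-/-. Mtg16-/- replicate 1 was close to the WT values and the other two were far under them, and the log2 fold change was -0.89 (SE 0.28, limma adjusted p = 0.272). The end of Dnaaf1 overlaps Taf1c on the opposite strand. Cotl1, a coactosin-like actin-binding protein, had 150.39, 206.64 and 196.44 TPM in WT and 217.56, 215.71 and 244.01 in Mtg16-/-. WT replicate 1 was the lowest library, and the log2 fold change was 0.30 (SE 0.15, limma adjusted p = 0.396). Gas8, a subunit of the nexin-dynein regulatory complex of cilia, had a log2 fold change of 0.01 (SE 0.19).

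Of the 3 tested genes of membrane transport, channels and mucosal defence, Slc7a5 and Cyba did not overlap. Slc7a5, the light chain of the large neutral amino acid transporter LAT1, had 16.29, 26.70 and 21.33 TPM in WT and 13.35, 16.12 and 14.73 in Mtg16-/-. The highest Mtg16-/- value was just under that of WT replicate 1, and the log2 fold change was -0.49 (SE 0.19, limma adjusted p = 0.311). Cyba encodes p22phox, the shared subunit of NADPH oxidases. It had 92.08, 102.73 and 100.70 TPM in WT and 118.26, 106.30 and 113.23 in Mtg16-/-, a log2 fold change of 0.19 (SE 0.11, limma adjusted p = 0.447). Piezo1, a mechanically gated cation channel, had 4.84, 7.40 and 6.38 TPM against 5.11, 6.93 and 4.12, with overlapping groups.

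Of 13 transcription, chromatin and RNA factors, 4 did not overlap, Zfp276, Taf1c and Zc3h18 lower and Taf5l higher. Taf5l, a subunit of SAGA-type histone acetyltransferase complexes, had 32.06, 37.95 and 34.68 TPM in WT and 39.21, 39.43 and 42.53 in Mtg16-/-, a log2 fold change of 0.21 (SE 0.12, limma adjusted p = 0.435). Taf1c, a subunit of the selectivity factor of RNA polymerase I, had 9.97, 10.80 and 12.71 TPM in WT and 9.91, 8.97 and 8.62 in Mtg16-/-, and its groups almost met. Zc3h18, an adaptor of nuclear RNA processing and decay, had 66.84, 69.62 and 74.09 TPM in WT and 64.32, 60.72 and 56.33 in Mtg16-/-. Tcf25 was the most abundant gene of the group, with 153.23, 128.51 and 141.01 TPM against 137.61, 127.37 and 109.33. Banp, a nuclear matrix and CpG-motif binding factor, was the least abundant, with 5.05, 3.37 and 4.13 TPM against 4.23, 4.92 and 5.63. Ankrd11, a chromatin regulator 0.184 Mb from Cbfa2t3, had 68.81, 62.41 and 69.84 TPM against 60.03, 65.12 and 42.32, with Mtg16-/- replicate 3 apart from the others. Irf8, known from myeloid and B cell differentiation, had 80.76, 80.83 and 87.42 TPM in WT and 97.44, 115.43 and 75.99 in Mtg16-/-, a log2 fold change of 0.19 (SE 0.16). The summed TPM of 6 myeloid markers was between 23.1 and 33.0 in WT and between 25.4 and 27.3 in Mtg16-/-. That of 4 B cell markers was between 12.9 and 37.0 and between 13.6 and 41.0. That of 6 T cell markers was between 133 and 454 and between 73.4 and 214. Which cells the Irf8 RNA came from was not tested.

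The 2 tested genes with less defined functions had overlapping groups. Ttc13 had 31.32, 33.43 and 37.22 TPM against 34.29, 37.04 and 32.37. Def8, a regulator of lysosome positioning, had 15.90, 11.21 and 10.86 TPM against 11.40, 9.15 and 9.12. The other 5 listed genes were under the limit on low values and were not tested. Crispld2 had 0.00, 0.06 and 0.00 TPM in WT and 0.07, 0.05 and 0.00 in Mtg16-/-. Cpne7 had 0.09, 0.10 and 0.11 against 0.00, 0.00 and 0.15, and Il17c, an epithelial cytokine of the interleukin-17 family, had 0.33, 0.00 and 0.00 against 0.00, 0.32 and 0.00. Jph3 was listed at 0 except for 0.09 in Mtg16-/- replicate 3, and Dbndd1 was listed at 0 in all 6 libraries.

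**Figure D2:**
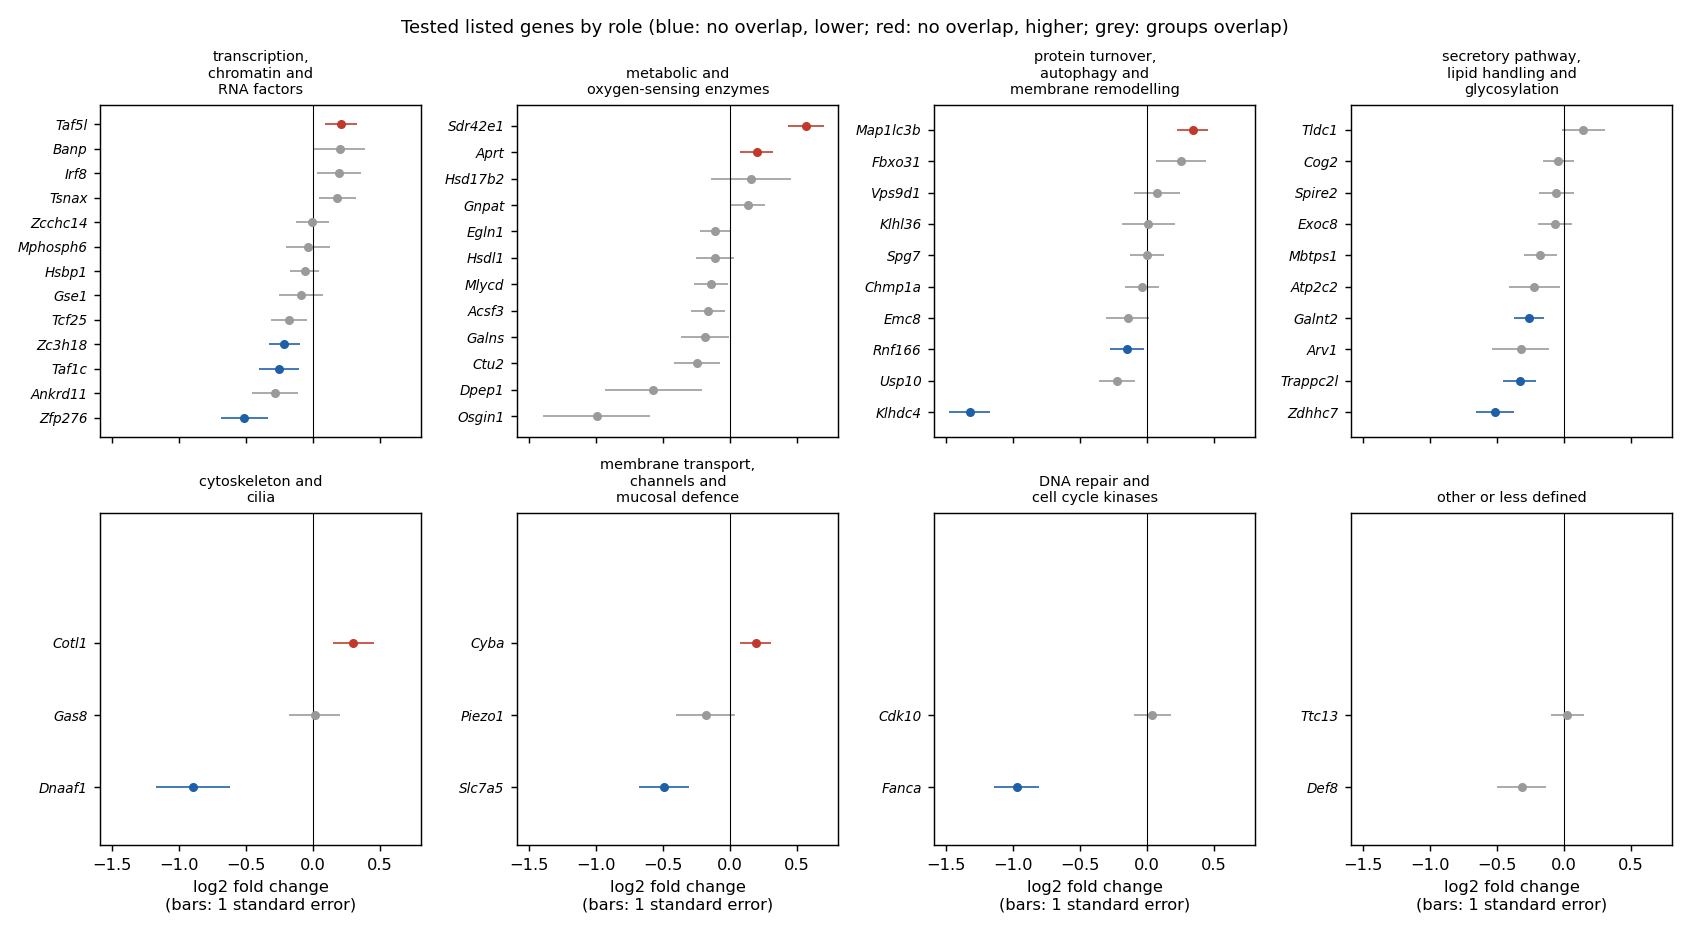
Log2 fold change of the 55 tested listed genes (horizontal axis, Mtg16-/- over WT on the log2(TPM + 1) scale, bars of 1 standard error) in 8 role groups. Klhdc4 (-1.32), Osgin1 (-0.99), Fanca (-0.97) and Dnaaf1 (-0.89) lie farthest out, of which Osgin1 has overlapping groups.

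In mean TPM the tested listed genes ran from 4.03 for Dnaaf1 to 221 for Aprt, with a median of 26.1 against 20.7 over all tested genes. At least 100 TPM was reached by 5 of them, and 9 had less than 10. The 5 were Aprt, Cotl1, Tcf25, Dpep1 and Cyba. Of these, Aprt, Cotl1 and Cyba had non-overlapping groups with the higher values in Mtg16-/-, as had 9.94% of all tested genes. None of them passed the adjusted threshold (limma adjusted p = 0.456, 0.396 and 0.447).

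Among the listed genes, 5 pairs start within 1 kb of each other and point away from each other on opposite strands, by the gene starts of GENCODE vM21 on GRCm38. Hsdl1 and Dnaaf1 start 52 bases apart, and their log2 fold changes were -0.11 (SE 0.14) and -0.89 (SE 0.28). Galns and Trappc2l start 177 bases apart, and theirs were -0.19 (SE 0.18) and -0.33 (SE 0.12). For Rnf166 and Ctu2, 79 bases apart, they were -0.15 (SE 0.13) and -0.24 (SE 0.17), and for Ttc13 and Arv1, 156 bases apart, 0.02 (SE 0.12) and -0.32 (SE 0.21). Vps9d1 and Zfp276 overlap at their starts and had 0.08 (SE 0.17) and -0.51 (SE 0.17). The smaller values moved with single libraries: with 1 left out, the log2 fold change ranged from -0.33 to -0.023 for Galns, from -0.40 to -0.13 for Ctu2 and from -0.52 to -0.14 for Arv1. In 4 of the pairs, 1 gene did not overlap between the groups and its partner did, where 21.0% of all tested genes did not overlap. In the pair of Ttc13 and Arv1 both overlapped. A lack of overlap did not always go with the larger change, since Ctu2 (-0.24) overlapped and Rnf166 (-0.15) did not. Whether the partners differ from each other was not tested.

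By distance, 9 of the 25 tested listed genes within 1 Mb of Cbfa2t3 did not overlap, 2 higher and 7 lower. Between 1 and 2 Mb, 3 of 8 did not, and between 2 and 5 Mb, 5 of 22. On the centromere side 13 of 33 did not overlap, 39.4%, with 5 higher and 8 lower. On the telomere side 4 of 22 did not, 18.2%, with 1 higher and 3 lower. These counts are to be read beside 21.0% of all tested genes, 9.94% higher and 11.1% lower. The list does not hold each gene of the region. Of 149 genes of the table that lie whole within 5 Mb of Cbfa2t3, 93 were tested, and 29 of the 93 did not overlap, 31.2%, against 21.0% of all tested genes. The 38 tested genes there that are not listed gave 12, 7 higher and 5 lower. Over every tested gene of chromosome 8 by distance, the share was 42.9% within 1 Mb (15 of 35, 4 higher and 11 lower), 30% between 1 and 2 Mb (6 of 20), 23.1% between 2 and 5 Mb (9 of 39), 23.3% between 10 and 20 Mb (27 of 116) and 22.2% beyond 20 Mb (101 of 454). The bin from 5 to 10 Mb held only 14 genes, of which 2 did not overlap. Outside 5 Mb, 22.4% of 585 genes on chromosome 8 did not overlap, and the shares of whole chromosomes ran from 16.8% on chromosome 17 to 24.6% on X. At an unadjusted p under 0.05 (limma), 22.9% of the genes within 1 Mb passed, 25% between 1 and 2 Mb and 17.9% between 2 and 5 Mb. Over all tested genes 14.6% passed. The median size of the change in these bins was 0.20, 0.22 and 0.20, against 0.19 over all. Neither of these measures was highest within 1 Mb. The shares by distance and by side were not tested, since neighbouring genes are not independent. After median-ratio rescaling the count within 1 Mb was 15, 42.9% against 21.9% of all, and 12 of them were lower. After quantile normalization it was 13, 37.1% against 22.0% of all, and 10 of them were lower. With no limit on low values it was 16 of 48, 33.3% against 17.7% of all. With a mean of at least 5 TPM it was 14 of 32, 43.8% against 21.4% of all. With 1 library left out it was 15 to 20, or 42.9% to 57.1%, where 27.7% to 38.8% of all did not overlap.

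**Figure D3:**
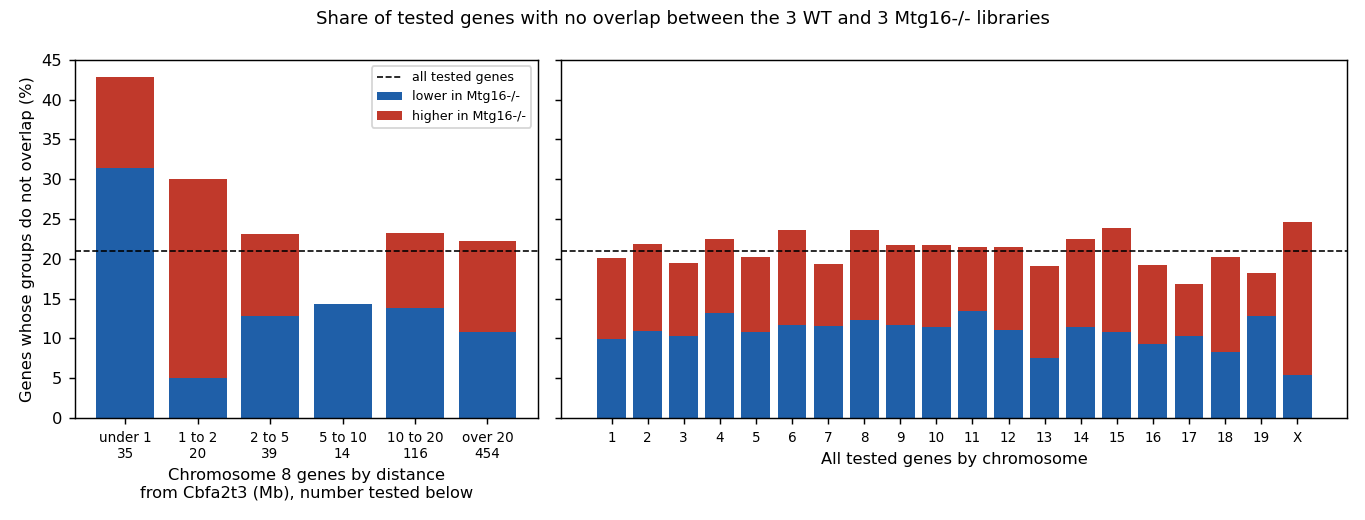
Percentage of tested genes whose 3 WT and 3 Mtg16-/- libraries do not overlap, split into lower (blue) and higher (red) in Mtg16-/-, for chromosome 8 genes by distance from Cbfa2t3 in Mb with the number tested under each bar (left) and for each chromosome (right); the dashed line is the 21.0% of all tested genes. The bar within 1 Mb reaches 42.9% and is mostly blue, the bars from 2 Mb outward lie near the line apart from the thin bin of 14 genes, and chromosome 8 as a whole lies among the other chromosomes.

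The largest changes without overlap among the genes of the region that are not in the list were those of 3 genes. Agt, which encodes angiotensinogen and lies 1.86 Mb from Cbfa2t3 on the telomere side, had 2.78, 4.90 and 2.04 TPM in WT and 13, 9.96 and 8.27 in Mtg16-/-, a log2 fold change of 1.46 (SE 0.27, limma adjusted p = 0.170). Zfpm1, the GATA cofactor FOG1, lies 0.287 Mb away on the centromere side and had 66.86, 61.93 and 75.91 TPM in WT and 34.60, 44.03 and 38.87 in Mtg16-/-, a log2 fold change of -0.79 (SE 0.14, limma adjusted p = 0.141). The predicted gene Gm29688, 4.28 Mb away, had 2.56, 0.94 and 1.03 TPM against 6.13, 6.63 and 2.82, a log2 fold change of 1.30 (SE 0.35, limma adjusted p = 0.255). The other gene of chromosome 8 that passed the test, the carboxylesterase gene Ces1c, lies 29.5 Mb from Cbfa2t3 and had a log2 fold change of 2.12 (SE 0.21, limma adjusted p = 0.0894).

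**Figure D4:**
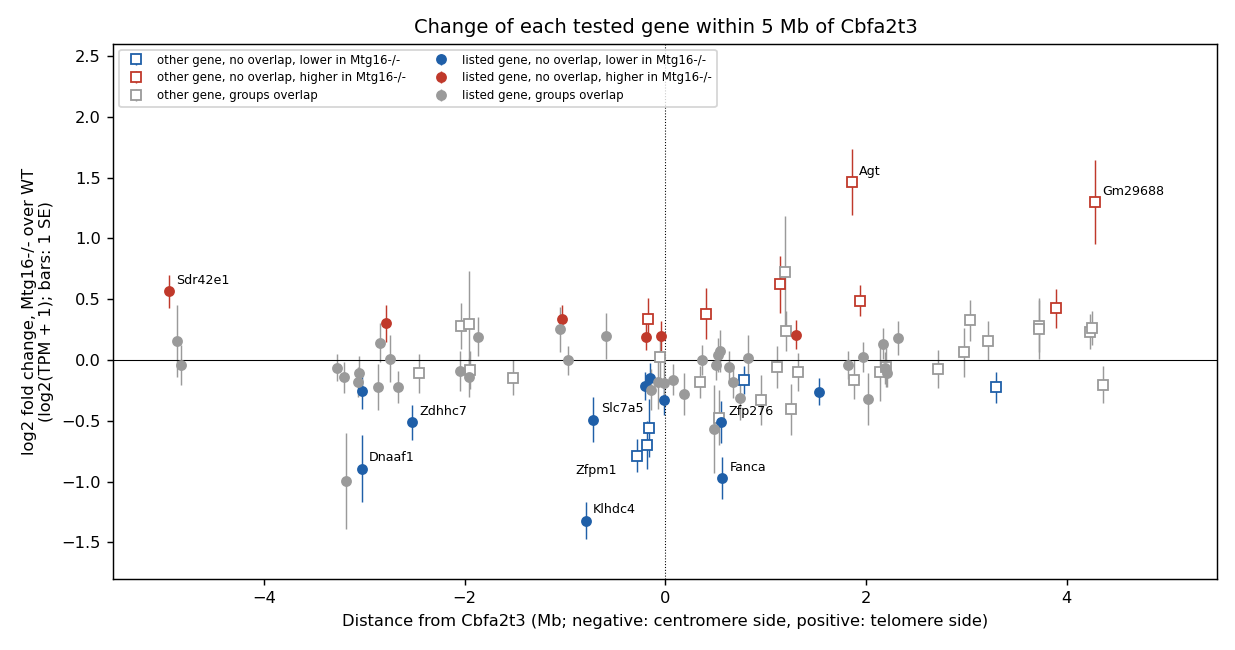
Log2 fold change (vertical axis, Mtg16-/- over WT on the log2(TPM + 1) scale, bars of 1 standard error) of each tested gene within 5 Mb against its distance from Cbfa2t3 in Mb, centromere side at left; circles are listed genes, open squares other genes, blue and red mark groups that do not overlap (lower and higher). Klhdc4 (-1.32) and Fanca (-0.97) lie within 1 Mb on opposite sides of Cbfa2t3, and Agt (1.46) and Gm29688 (1.30) lie highest.

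The makeup of the libraries moved with the genotype, and its part in the differences was not tested. The summed TPM of 10 enterocyte markers was between 12554 and 35812 in WT, with WT replicate 1 highest, and between 6463 and 12839 in Mtg16-/-, and 3 of the 10 did not overlap, all lower. The sum of 6 Paneth cell markers was between 6346 and 14022 in WT and between 17080 and 20720 in Mtg16-/- (4 of 6 higher without overlap), that of 7 enteroendocrine markers between 233 and 292 and between 396 and 419 (6 of 7 higher), and that of 5 stem cell markers between 768 and 1338 and between 1443 and 1878 (3 of 5 higher). The sum of 6 goblet cell markers was between 6483 and 10793 in WT and between 5649 and 8262 in Mtg16-/- (2 of 6 lower), and that of 6 T cell markers between 133 and 454 and between 73.4 and 214 (none without overlap). None of these markers passed the adjusted threshold, and no marker was at 0 in all libraries. The sum of 4 tuft cell markers was between 21.2 and 43.9 in WT and between 17.3 and 22.8 in Mtg16-/-, with Il25 under the limit on low values. Summed markers of enterocytes, Paneth cells and goblet cells were the most abundant of these lists, while 5 of 6 fibroblast and muscle markers had a mean under 1 TPM and their sum was at most 5.63 in any library.

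The score of the enterocyte markers was 1.49, -0.03 and 0.30 in WT and 0.03, -0.84 and -0.94 in Mtg16-/-, so it went partly with the genotype. With 6 libraries, a fit with this score as a covariate cannot separate score and genotype. In that fit the listed genes moved by different amounts, and the reason was not tested. The log2 fold change of Dnaaf1 was then -0.27 (SE 0.26), that of Zdhhc7 -0.23 (SE 0.13) and that of Zfp276 -0.31 (SE 0.23). That of Taf5l was 0.07 (SE 0.14), that of Cotl1 0.02 (SE 0.14), and that of Dpep1 changed sign to 0.38 (SE 0.22). Klhdc4 (-1.60, SE 0.16), Fanca (-1.15, SE 0.23), Slc7a5 (-0.89, SE 0.18), Sdr42e1 (0.60, SE 0.19) and Map1lc3b (0.40, SE 0.14) had values at least as far from 0 as without the covariate. The limma adjusted p of Klhdc4 was 0.106. Without WT replicate 1, the library with the highest enterocyte sum, Klhdc4 had a log2 fold change of -1.42 (limma adjusted p = 0.0429), Fanca -1.07, Dnaaf1 -0.71, Zdhhc7 -0.40, Cotl1 0.16 and Dpep1 -0.24, and 24 of the 55 tested listed genes did not overlap, 43.6%, against 31.5% of all tested genes in those 5 libraries.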

How the data were processed

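RNA sequencing was available for 3 WT and 3 Mtg16-/- mice, 1 library each, grouped by the labels. Libraries were made from 200 ng of RNA with 14 PCR cycles. The authors deposited TPM values per gene symbol, estimated with RSEM and rounded to 2 decimals. The submitters' processing notes name mm10, cutadapt 1.9.1, STAR 2.5.2a, RSEM 1.3.0 and DESeq2 1.12.3. TPM holds no read numbers, so library depth is unknown and no count test was run.

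Values were transformed as log2(TPM + 1). Genes that averaged 1 TPM or more were fitted with limma 3.58.1 (lmFit, and eBayes with an intensity trend; R 4.3.3) without covariates, p-values were adjusted by Benjamini-Hochberg over 12268 genes, and the threshold was 0.1. The fit was tested on simulated data. Permutation tests were exact and two-sided. Nothing states that the mice were handled apart, so p-values measure the spread between these 6 libraries. Positions came from RefSeq GRCm38.p6 (24636 of 24736 symbols matched, 564 by a synonym). Overlaps and strands came from GENCODE vM21, and overlaps were searched among its protein-coding genes only.

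The members, lists and role groups were chosen with earlier results of these data known. The text names Cbfa2t3, called members, among members without overlap up to 8 with the largest rise (only 6 had one) and the 8 with the largest fall, the 4 tested members nearest on each side, the most and least abundant of each role group, members under the limit, the 3 unlisted genes of the region with the largest change without overlap, and called genes of chromosome 8; the other members named were chosen after their values were seen. Alternatives were a pseudocount of 0.1, no limit on low values or one of 5 TPM, quantile normalization or median-ratio rescaling, no trend, robust moderation, array weights, the replicate number as a block, enterocyte markers as a covariate (mean deviation of their log2 values), an adjusted p under 0.05, all genes of the region, and each library left out. Those for the count within 1 Mb were added after seeing the data.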

Additional observations from a re-analysis of the deposited data

How the results depend on the processing

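Klhdc4 remained called with a pseudocount of 0.1, a mean TPM of at least 5, robust moderation, array weights, the replicate block and without WT replicate 1. The number of listed genes called, 1, was 0 with no limit on low values, quantile normalization, median-ratio rescaling, no intensity trend, the enterocyte covariate and an adjusted p under 0.05, where the count of the whole region was also 0 in each, and it ranged from 0 to 1 for both with 1 library left out. In these limma fits 10 or 11 listed genes had an unadjusted p under 0.05 with all libraries and 7 to 10 with 1 left out. The share of all tested genes was 14.6% in the main fit and was not computed for the alternatives. These counts are therefore no result about the listed genes. The adjusted p of Klhdc4 ranged from 0.00437 to 0.480 over its alternatives. Array weights gave 8 listed genes (2 higher and 6 lower; 12 in the region, 855 or 6.97% of all). With the replicate number as a block 7 were called (1 higher and 6 lower: Sdr42e1, Osgin1, Dnaaf1, Zdhhc7, Klhdc4, Dpep1 and Fanca; 13 in the region, 1201 or 9.79% of all). Same-numbered libraries correlated in their deviations from the group means with r between 0.0753 and 0.429, not all above 0.1, and not every library correlated best with its own number, so the numbers were not taken as pairs. The listed genes without overlap numbered 19 to 26 with 1 library left out, where fewer libraries give more such genes (27.7% to 38.8% of all), and all tested genes of the region gave 29. Without Mtg16-/- replicate 1 the count was 26. The median log2 fold change of the listed genes was -0.044 with quantile normalization, where that of all tested genes was 0.022. With the covariate these medians were -0.053 and 0.011, and after median-ratio rescaling -0.089 and -0.0066. With 1 library left out the median of the listed genes was between -0.11 and -0.07. Cbfa2t3 was at 0.11 with array weights, at -0.35 (SE 0.36) with the covariate and between -0.26 and 0.15 with 1 library left out. With the covariate the sign changed for Galns (0.13), Dpep1 (0.38), Tcf25 (0.034), Chmp1a (0.19), Klhl36 (-0.28), Cdk10 (-0.049), Ttc13 (-0.053) and Def8 (0.073), with quantile normalization for Chmp1a (0.058), and with array weights for Spg7 (-0.023), Chmp1a (0.038) and Ttc13 (-0.0095). With 1 library left out the log2 fold change ranged from -0.092 to 0.051 for Spg7, from -0.091 to 0.055 for Chmp1a, from -0.11 to 0.11 for Klhl36, from -0.032 to 0.13 for Cdk10 and from -0.031 to 0.090 for Ttc13. The cause was not tested for any of these. Of the 34 genes named by the rule apart from Cbfa2t3, 25 kept their sign in every alternative run. Depth limits no statement that can be quantified here, since TPM keeps no read number.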
